A study of Mus musculus with 47 samples.

Results

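The proteasome subunit genes were taken as every row of both count tables whose symbol starts with Psm, then a letter from a to g, then a number. The rule found 50 of 24391 rows: 8 alpha subunits, 7 constitutive and 4 inducible or thymic beta subunits, 6 ATPases and 11 other subunits of the 19S cap, 7 assembly chaperones and 5 activators or inhibitors. The other two were Psme2b, a near copy of Psme2, and Psmc3ip, which shares the symbol but encodes no proteasome subunit. The filter on low counts left 47 members for testing in brown fat, 49 for white fat and 48 for muscle. Psmb11, the beta subunit of the thymus, was tested in none of these tissues, the testis alpha subunit Psma8 was tested in white fat, and Psmc3ip was tested in white fat and muscle.

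All mice were C57Bl6. 3P10 mice carried HT1080 tumours, grown from a human fibrosarcoma cell line, and were given 3P10, an antibody against GFRAL, the hindbrain receptor of the circulating factor GDF15. IgG1 mice carried the same tumours and were given an IgG1 antibody. NTB mice carried no tumour, and no antibody is named for them, so a comparison of IgG1 with NTB holds the tumour and the antibody together. Both antibodies were dosed weekly at 3 mg/kg, the first dose on the day of tumour inoculation, and tissues were taken on day 21. There were 6 brown fat libraries from 3P10 mice, 5 from IgG1 mice and 6 from NTB mice, and 5 of each group for white fat and for gastrocnemius muscle. The sources used here give no age or sex, and do not name the white fat depot. Whether libraries came from separate mice is not stated, so p-values measure the spread between libraries.

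The proteasome is the protease that degrades proteins tagged with ubiquitin. Its 20S core is a barrel of alpha rings around beta rings, and Psmb5, Psmb6 and Psmb7 encode the beta subunits that cut peptide bonds. Interferon induces Psmb8, Psmb9 and Psmb10, which take their places in the immunoproteasome. The 19S cap unfolds substrates with ATPases (Psmc genes) and binds and trims ubiquitin with other subunits (Psmd genes). Psme1 and Psme2 encode the partners of the PA28 activator ring, and Psme4 encodes the activator PA200. In muscle, the ubiquitin and proteasome system is known for its part in protein loss during wasting.

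Brown fat libraries held 0.799 to 2.46 M counts (M, 1000 × 1000), of which 4343 to 14821 were counts of members. White fat libraries held 18.6 to 80.7 M counts, 95416 to 428873 of them of members, and muscle libraries 24.8 to 33.5 M counts, 92188 to 243607 of them of members. Marker genes fitted the labelled tissues: brown adipocyte markers summed to 8612 to 13367 CPM in brown fat, adipocyte markers to 39104 to 56609 CPM in white fat, and skeletal muscle markers to 214513 to 433360.0 CPM in muscle. Skeletal muscle markers also reached 50.6 to 3249 CPM in brown fat and 1253 to 4518 CPM in white fat. White fat IgG1 libraries 2 and 4 stood apart, with brown adipocyte markers at 5152 and 5319 CPM against at most 1479 CPM in the other 13. IgG1 library 4 was also the deepest white fat library, at 80.7 M counts, with NTB library 3 next at 34.4 M. The sample number in its column label lies outside the run of the other white fat labels. The part of these differences in its values was not tested. In muscle, 3P10 library 2, IgG1 libraries 2 and 4 and NTB library 3 stood apart on the first principal component. Results that rest on these libraries are given with and without them. In their column labels, the muscle libraries that stood apart hold the highest library numbers and the last sample numbers of that tissue. White fat IgG1 libraries 2 and 4 share their label numbers with muscle IgG1 libraries 2 and 4. White fat 3P10 library 2 and NTB library 3 share theirs with the other muscle libraries that stood apart, and did not stand apart themselves. The part of library order in these differences was not tested. All are bulk tissues, where fewer cells of a type and less RNA per cell cannot be told apart.

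CPM is a gene's share of its library's TMM-scaled total, expressed per M counts. Summed over the 50 members, brown fat held 6126 ± 324 CPM in 3P10 mice, 6387 ± 339 CPM in IgG1 mice and 5646 ± 334 CPM in NTB mice (SD, n = 6, 5 and 6). White fat held 4741 ± 484 CPM in 3P10 mice, 5020.0 ± 699 CPM in IgG1 mice and 4635 ± 264 CPM in NTB mice (SD, n = 5 each). The muscle sums were 4903 ± 925 CPM in 3P10 mice, 5655 ± 1881 CPM in IgG1 mice and 4562 ± 1291 CPM in NTB mice (SD, n = 5 each). The groups overlapped in every tissue, and no test was made on these sums because the members were chosen with earlier results known.

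**Figure D1:**
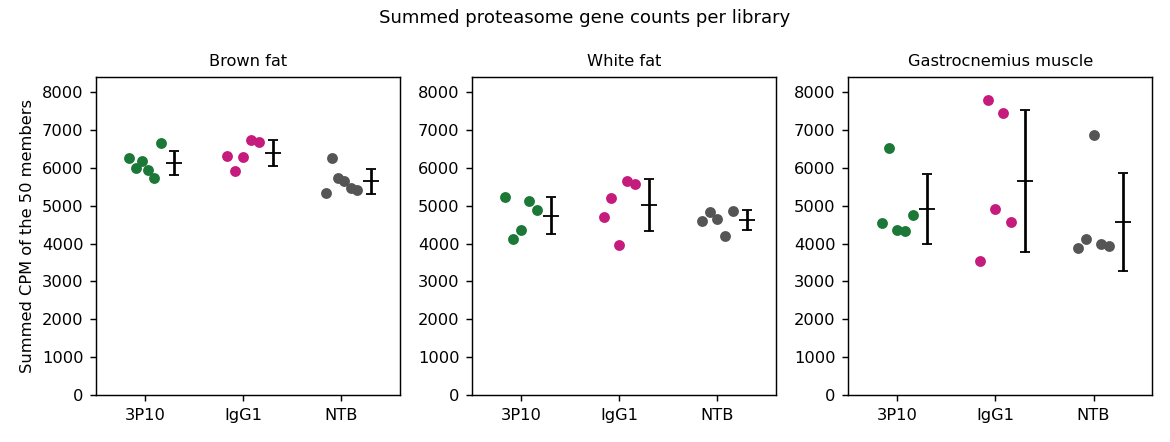
Summed CPM of the 50 members per library, in brown fat, white fat and gastrocnemius muscle. Points are libraries of 3P10, IgG1 and NTB mice, with the mean and SD beside them. In muscle, 4 libraries lie at 6531 to 7805 CPM and the other 11 at 3529 to 4906 CPM.

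White fat and muscle libraries came from a directional RNA kit with no 3′ step named, so levels of members were compared per kb of exon there and not in the 3′ libraries of brown fat. The values that follow are medians in 3P10, IgG1 and NTB mice, in CPM per kb. In white fat, Psma4 of the alpha ring stood highest with 173, 171 and 168. The catalytic subunits Psmb6 and Psmb7 stood at 112.3, 154 and 111 and at 94.8, 115 and 88.2 there, while the third, Psmb5, stood at 6.51, 10.1 and 7.62. In muscle, Psmb5 was again low, at 9.46, 9.93 and 9.25, beside 132, 138 and 128 for Psmb6. Per kb, the counted value of Psmb5 thus lay far below those of its catalytic ring partners in both tissues. Lengths were the union of a gene's exons in GENCODE M21, while the counts were made on build mm9. Differences in annotation and reads that map to several places could not be examined from counts. This limits the values per kb of every member, so they need not be true transcript levels. In GENCODE M21, Psmb5 overlaps the microRNA gene Mir686 on the same strand, and the part of this overlap in the count was not tested. Psmd1, Psmg3 and Psme2b also overlap a gene on the same strand. Psma4, Psma5, Psmb7, Psmb8, Psmb9, Psmc3, Psmd3, Psmd13, Psme1 and Psmc3ip overlap a gene on the other strand. The strand setting of the counting is not given, so reads of these pairs cannot be told apart.

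The inducible beta subunits differed in level between the tissues, which were normalized apart. Psmb8 stood at 50.9, 49.3 and 42.5 CPM per kb in white fat and 4.10, 4.43 and 3.14 in muscle. Psmb9 stood at 11.6, 14.1 and 11.5 in white fat and 1.21, 0.925 and 1.01 in muscle. Leukocyte markers were also higher in white fat, with sums of 134 to 467 CPM against 35.7 to 69.9 CPM in muscle, and their part in the difference was not tested. The activator gene Psme4 ran the other way, with 13.4, 15.1 and 13.04 CPM per kb in white fat and 45.8, 45.3 and 43.0 in muscle. Psmb11 had 0 counts in brown fat and 8 counts in all over the 30 white fat and muscle libraries.

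In brown fat, the alpha subunit gene Psma6 was higher in tumour-bearing IgG1 mice than in NTB mice and lower in 3P10 mice than in IgG1 mice, and 7 other members differed between 3P10 and IgG1 mice. Calls were made with edgeR's quasi-likelihood test, at p under 0.05 after Benjamini-Hochberg adjustment across every gene that was tested. The first comparison, IgG1 with NTB, called 1 of 47 members higher and 0 lower, against 2.97% of all 8711 genes tested (1.86% higher and 1.11% lower). DESeq2 called 4 there, adding Psma7, Psme1 and Psme4, against 6.25% of the genes to which it gave an adjusted p. For 3P10 against IgG1, 5 of 47 members were higher and 3 were lower, against 11.6% of all genes tested (6.05% higher and 5.58% lower). The groups did not overlap for 6 of 47 members, against 6.29% of all genes. The members' log2 fold changes ran from -0.61 to 0.48, with 23 of 47 above 0 against 49% of all genes, and a median of -0.01 for the members and for all genes. Against NTB, 3P10 mice had 1 member higher and 1 lower, against 5.75% of all genes tested (3.03% higher and 2.72% lower). The comparisons share the IgG1 or the NTB libraries, so noise in a shared group enters both.

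Most members had log2 fold changes above 0 in both tumour-bearing groups against NTB, with few past the threshold. For IgG1 against NTB, 34 of 47 log2 fold changes were above 0, with a median of 0.08, against 48.5% of all genes and a median of -0.01. In 3P10 against NTB, 38 of 47 were above 0, with a median of 0.10, against 49.7% of all genes and a median of 0.00. Both comparisons share the NTB libraries. By role, 3P10 against NTB was above 0 for 7 of 7 alpha subunits, 7 of 7 constitutive beta subunits and 6 of 6 ATPases. It was above 0 for 10 of 11 other cap subunits and for 0 of 3 inducible beta subunits. Some of these positive values were close to 0, such as 0.005 for Psmd4 and 0.012 for Psmc4. Assembly chaperones went both ways, from -0.29 (Psmg1) to 0.50 (Psmd10), and among the activators Psme1 was below 0 (-0.05). An unadjusted p under 0.05 was reached by 13 members in IgG1 against NTB (17.7% of all genes), 14 in 3P10 against IgG1 (26.7%) and 10 in 3P10 against NTB (22%).

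Psma6, an alpha subunit at the entrance of the core, carried the clearest difference. For groups of 6, the lowest, median and highest library are given here and for the other brown fat genes. Its levels were 207, 266 and 278 CPM in 3P10 mice, 351, 323, 447, 389.5 and 448 CPM in IgG1 mice and 222, 247 and 277 CPM in NTB mice. Every IgG1 library lay above every NTB library and above every 3P10 library, while the 3P10 and NTB ranges overlapped. The gene was higher in IgG1 than in NTB mice (log2 fold change 0.67, SE 0.10, adjusted p = 0.00140) and lower in 3P10 than in IgG1 mice (log2 fold change -0.61, SE 0.10, adjusted p = 0.000596). Groups that do not overlap made up 2.57% of all genes in IgG1 against NTB. Both calls held in each of the 19 alternatives, in the ranges 0.61 to 0.73 and -0.67 to -0.55. In 3P10 against NTB its log2 fold change was 0.06 (adjusted p = 0.766).

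No other alpha subunit passed the test in IgG1 against NTB. Psma2, named after its values were seen because it lies outside the naming rule, was higher in 3P10 than in IgG1 mice (log2 fold change 0.29, SE 0.09, adjusted p = 0.0289). It stood at 343, 363 and 408 CPM in 3P10 mice, 308, 292, 270.2, 334 and 321 CPM in IgG1 mice and 269, 319 and 349.8 CPM in NTB mice. Every 3P10 library lay above every IgG1 library. The call was lost in 6 of 19 alternatives: with no filter, with a replicate block, and without 3P10 library 3 or 4 or IgG1 library 2 or 3. Over the 7 alpha subunits tested, 1 was higher and 1 was lower in 3P10 than in IgG1 mice, and the median was 0.12.

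Among the constitutive beta subunits, 6 of 7 log2 fold changes were positive in 3P10 against IgG1 and 1 member, Psmb6, was called. Psmb6, the subunit with caspase-like activity, stood at 123, 130.2 and 157 CPM in 3P10 mice, 107, 118, 107, 112.1 and 109.9 CPM in IgG1 mice and 107, 121 and 126 CPM in NTB mice. All 3P10 libraries lay above all IgG1 libraries (log2 fold change 0.31, SE 0.09, adjusted p = 0.0287). The call was lost in 7 of 19 alternatives: with no filter on low counts, with a replicate block, and without 3P10 library 3 or 6 or IgG1 library 1, 3 or 5. Psmb7, the subunit with trypsin-like activity, stood at 134, 148 and 184 CPM in 3P10 mice, 125, 111, 155, 153 and 144 CPM in IgG1 mice and 99.4, 120.2 and 142 CPM in NTB mice. Its groups overlapped, with a log2 fold change of 0.18 (adjusted p = 0.361) against IgG1 and 0.36 (adjusted p = 0.0638) against NTB. Psmb5, the subunit with chymotrypsin-like activity, stood at 7.21, 11.5 and 14.2 CPM in 3P10 mice, 5.68, 4.58, 7.98, 11.7 and 10.5 CPM in IgG1 mice and 7.36, 9.94 and 12.7 CPM in NTB mice. At this depth no difference was detectable for Psmb5, with a log2 fold change of 0.40 (adjusted p = 0.364) in 3P10 against IgG1 and -0.28 (adjusted p = 0.661) in IgG1 against NTB.

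The inducible beta subunits had few counts in brown fat, where 3 counts correspond to 1.25 to 3.68 CPM. Over the 17 libraries, Psmb8 held 250 counts, Psmb9 held 203 and Psmb10 held 385. Psmb8 stood at 6.14, 11.5 and 17.4 CPM in 3P10 mice, 9.09, 19.2, 10.3, 11.7 and 6.73 CPM in IgG1 mice and 9.19, 14.2 and 19.2 CPM in NTB mice. Psmb9 stood at 5.12, 7.09 and 11.6 CPM in 3P10 mice, 23.9, 10.996, 9.12, 7.23 and 10.5 CPM in IgG1 mice and 8.44, 10.9 and 14.7 CPM in NTB mice. Psmb10 stood at 12.3, 17.9 and 24.9 CPM in 3P10 mice, 24.99, 26.6, 7.98, 17.2 and 15.7 CPM in IgG1 mice and 14.7, 20.7 and 27.3 CPM in NTB mice. None of these passed the test in any comparison, and the SE of their log2 fold changes ran from 0.22 to 0.30. The value furthest from 0 was that of Psmb9 in 3P10 against IgG1, a log2 fold change of -0.59 (adjusted p = 0.210), and IgG1 library 1 alone held the highest Psmb9 value.

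In the 19S cap, the ATPase gene Psmc6 was higher in 3P10 than in IgG1 mice and the other 5 ATPases were not called. Psmc6 stood at 119, 150.1 and 163 CPM in 3P10 mice, 110.2, 98.1, 106, 105 and 138 CPM in IgG1 mice and 102, 109 and 139.9 CPM in NTB mice. The ranges overlapped through 1 IgG1 library, at 138 CPM (log2 fold change 0.39, SE 0.11, adjusted p = 0.0259). The Psmc6 call was lost in 6 of 19 alternatives, which were a replicate block and leaving out 3P10 library 3 or 6 or IgG1 library 2, 3 or 4. Against NTB the log2 fold change was 0.35 (adjusted p = 0.0504). Of the 11 other cap subunits, Psmd7 was called. Psmd7, a partner of the deubiquitinase subunit Psmd14, stood at 123, 138 and 153 CPM in 3P10 mice, 169, 199.8, 168, 186 and 180.2 CPM in IgG1 mice and 146, 172 and 190.2 CPM in NTB mice. All 3P10 libraries lay below all IgG1 libraries (log2 fold change -0.39, SE 0.09, adjusted p = 0.00689), a call that held in each of the 19 alternatives. The fall against NTB was close to the threshold (log2 fold change -0.29, SE 0.09, adjusted p = 0.04998) and was lost in 15 of 20 alternatives, among them 10 of the 12 that left out 1 library. Psmd11, a subunit of the lid of the cap, stood at 84.6, 92.7 and 110.1 CPM in 3P10 mice, 92.0, 93.5, 94.6, 92.2 and 95.7 CPM in IgG1 mice and 76.1, 92.0 and 106 CPM in NTB mice, with a log2 fold change of 0.01 (adjusted p = 0.955) in 3P10 against IgG1.

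Psmd10, also called gankyrin and an assembly chaperone of the cap, was higher in 3P10 mice than in both other groups. It stood at 54.3, 57.4 and 67.0 CPM in 3P10 mice, 44.3, 49.5, 38.8, 34.3 and 44.9 CPM in IgG1 mice and 32.7, 38.1 and 56.8 CPM in NTB mice. All 3P10 libraries lay above all IgG1 libraries (log2 fold change 0.47, SE 0.14, adjusted p = 0.0270), while NTB library 5 reached into the 3P10 range (log2 fold change 0.50, SE 0.13, adjusted p = 0.0279). The call against IgG1 was lost in 3 of 19 alternatives, with a replicate block and without IgG1 library 3 or 4. That against NTB was lost in 6 of 20, with a replicate block, with a covariate for skeletal muscle markers, and without 3P10 library 4 or NTB library 1, 3 or 6. The other 6 assembly chaperones were not called in any brown fat comparison.

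The partners of the PA28 activator went opposite ways in 3P10 against IgG1. Psme1 stood at 73.4, 102 and 109.7 CPM in 3P10 mice, 137, 143, 111, 138 and 131 CPM in IgG1 mice and 91.3, 105 and 114 CPM in NTB mice, and was lower in 3P10 than in IgG1 mice with no overlap (log2 fold change -0.41, SE 0.11, adjusted p = 0.0149). Its log2 fold change against NTB in IgG1 mice was 0.35 (adjusted p = 0.0704). Psme2 stood at 68.4, 80.5 and 93.3 CPM in 3P10 mice, 70.4, 63.2, 62.7, 61.5 and 55.3 CPM in IgG1 mice and 63.0, 76.6 and 91.3 CPM in NTB mice, and was higher in 3P10 than in IgG1 mice, with overlapping ranges (log2 fold change 0.36, SE 0.11, adjusted p = 0.0372). The IgG1 mice had a log2 fold change of -0.28 (adjusted p = 0.182) against NTB. Reads of Psme2 can be shared with its near copy Psme2b, at 18.4, 22.04 and 28.1 CPM in 3P10 mice, 27.3, 40.3, 25.1, 25.3 and 29.9 CPM in IgG1 mice and 7.39, 19.02 and 30.4 CPM in NTB mice. With the counts of both summed, an alternative chosen after seeing the data, the log2 fold change was 0.17 (adjusted p = 0.341), and the Psme2 call was lost in 12 of 19 alternatives, among them 8 of the 11 that left out 1 library. The Psme1 call was lost in 1 of 19, the replicate block (adjusted p = 0.0640). The third activator, Psme4, was not called in brown fat. Psme4 stood at 177, 191 and 246 CPM in 3P10 mice, 191, 225, 218, 245 and 256 CPM in IgG1 mice and 148, 172 and 215 CPM in NTB mice, with a log2 fold change of 0.37 (adjusted p = 0.0663) in IgG1 against NTB and -0.18 (adjusted p = 0.309) in 3P10 against IgG1.

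**Figure D2:**
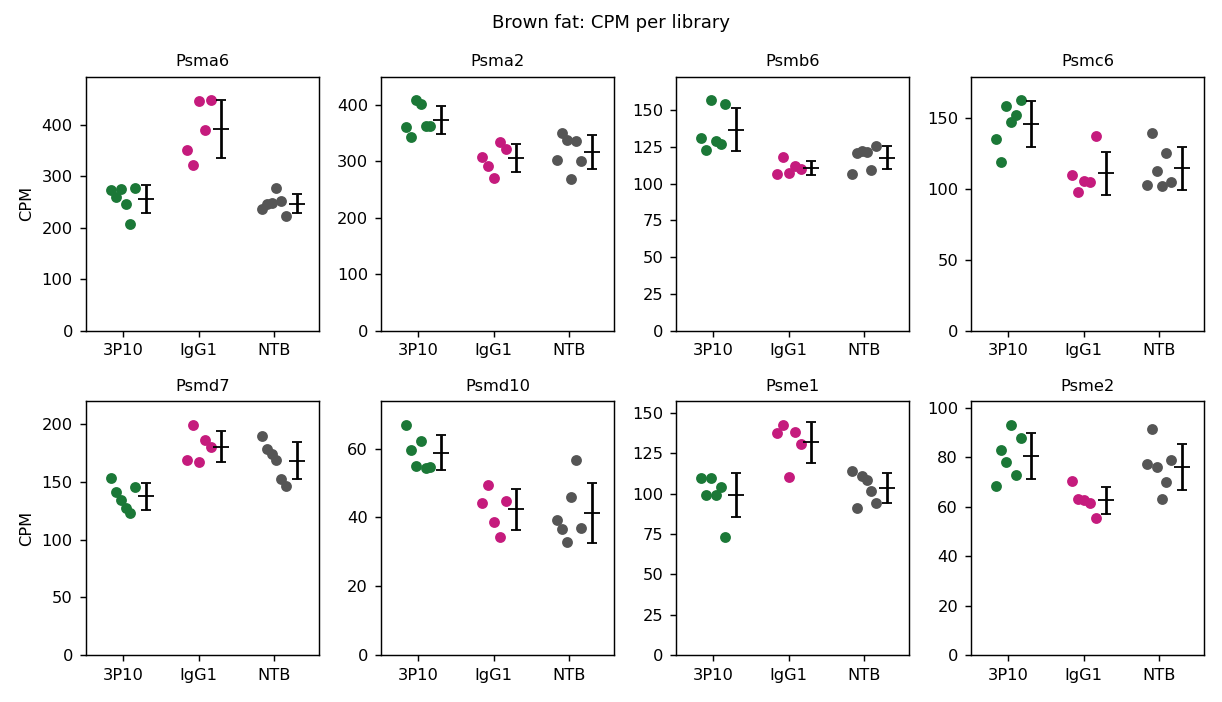
CPM per library of the 8 members called in brown fat in 3P10 against IgG1, with the mean and SD of each group beside the points. IgG1 libraries lie above 3P10 libraries for Psma6, Psmd7 and Psme1, and 3P10 libraries lie above IgG1 libraries for Psma2, Psmb6 and Psmd10 without overlap.

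Cell type markers were also read in these brown fat groups, and some of them differed between groups. Skeletal muscle markers summed to 50.6 to 2532 CPM in 3P10 mice, 231 to 2486 CPM in IgG1 mice and 905 to 3249 CPM in NTB mice, and 0 of 14 passed the test in any comparison. With their mean log level as a covariate, Psmd7 and Psmd10 missed the threshold in 3P10 against NTB (log2 fold changes -0.30, adjusted p = 0.0926, and 0.49, adjusted p = 0.0536), and Psmc6 passed it (log2 fold change 0.40, adjusted p = 0.0495). Brown adipocyte markers summed to 9919.8 to 13367 CPM in 3P10 mice and 9034 to 10441 CPM in IgG1 mice, with 5 of 10 higher and 1 lower in 3P10. Endothelial markers summed to 761 to 1135 CPM in 3P10 mice, 773 to 1584 CPM in IgG1 mice and 1127 to 1679 CPM in NTB mice, with 4 of 8 tested lower in 3P10 than in NTB mice and 1 of 8 lower in 3P10 than in IgG1 mice. Fibroblast markers summed to 652 to 931 CPM in 3P10 mice, 726 to 1157 CPM in IgG1 mice and 814 to 1111 CPM in NTB mice, with 3 of 10 lower in 3P10 than in IgG1 mice. Leukocyte markers summed to 45.6 to 65.6, 42.6 to 47.9 and 33.98 to 46.4 CPM in 3P10, IgG1 and NTB mice, with Cd3g, Cd8a and Cd79a among those at 0 counts. Of all genes, 6.05% were called higher and 5.58% lower in 3P10 than in IgG1 mice. In 3P10 against NTB, 2.72% were called lower. Apart from the covariate, the part of these cells in the member values was not tested. The numbers of the brown fat libraries run through one group after another, so order and group cannot be told apart.

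The start sites of Psma6, Psme1 and Psme2 are shown because both Psma6 calls held in every alternative run, and because the partners Psme1 and Psme2 went opposite ways. Sequences are from RefSeq on GRCm38.p6, with 250 bases before and 50 from the start site on, 5′ to 3′ on the strand of the gene. Searched on both strands, motifs are in capitals: GAAANNGAAA, the core of the interferon response element, CCAAT, TGACNNNGC, the core of the antioxidant response element, and TGACGTCA. Psma6 has a pair of annotated starts on chromosome 12, and its windows were chr12:55383972-55384271 and chr12:55398575-55398874, both on the plus strand. Psme1 and Psme2 are neighbours on chromosome 14, at chr14:55578244-55578543 on the plus strand and chr14:55591052-55591351 on the minus strand. Psme2 also has a second annotated start, whose window, chr14:55590972-55591271, overlaps the one shown.
Psma6 first start: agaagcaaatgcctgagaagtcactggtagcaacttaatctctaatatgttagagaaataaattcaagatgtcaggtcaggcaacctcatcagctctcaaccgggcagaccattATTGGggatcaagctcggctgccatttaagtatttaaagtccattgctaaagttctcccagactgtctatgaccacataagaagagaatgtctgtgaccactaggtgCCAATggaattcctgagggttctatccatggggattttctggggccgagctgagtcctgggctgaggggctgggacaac
Psma6 second start: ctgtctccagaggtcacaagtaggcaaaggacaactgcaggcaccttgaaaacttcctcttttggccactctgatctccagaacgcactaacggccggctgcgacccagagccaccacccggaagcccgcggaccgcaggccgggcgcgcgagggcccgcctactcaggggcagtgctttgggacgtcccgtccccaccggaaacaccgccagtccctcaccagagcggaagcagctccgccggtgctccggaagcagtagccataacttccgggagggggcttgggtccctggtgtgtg
Psme1: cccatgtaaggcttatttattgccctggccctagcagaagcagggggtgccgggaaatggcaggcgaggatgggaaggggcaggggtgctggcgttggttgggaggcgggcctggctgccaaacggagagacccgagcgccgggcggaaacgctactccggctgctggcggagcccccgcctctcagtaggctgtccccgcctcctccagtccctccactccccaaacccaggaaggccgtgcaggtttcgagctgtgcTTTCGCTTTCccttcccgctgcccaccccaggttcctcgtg
Psme2: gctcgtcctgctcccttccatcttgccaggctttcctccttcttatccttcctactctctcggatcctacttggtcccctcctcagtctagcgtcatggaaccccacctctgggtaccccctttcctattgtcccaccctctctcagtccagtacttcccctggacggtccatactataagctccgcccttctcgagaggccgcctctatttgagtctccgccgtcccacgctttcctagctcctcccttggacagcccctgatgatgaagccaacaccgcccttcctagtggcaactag
The Psme1 window held GAAANNGAAA on the minus strand, from base 10 after the start site, and both Psme2 windows held none of the motifs searched. CCAAT lay in the window of the first Psma6 start at bases -136 and -29. Of 42 members with a RefSeq window, 5 held GAAANNGAAA (Psmb3, Psmd4, Psmd9, Psme1 and Psmg4), 11.9%, against 3.99% of 27025 genes. TGACNNNGC was in 6 of 42 (Psmb5, Psmb6, Psmc6, Psmd9, Psmd12 and Psme4), 14.3%, against 13.99% of genes. CCAAT was in 15 of 42, 35.7%, against 41.1% of genes, and TGACGTCA was in 0 of 42, against 2.03%. A letter match is a description and does not show that a factor binds.

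In white fat, the catalytic beta subunit gene Psmb5 was lower in 3P10 than in IgG1 mice, and no other member passed the test. In IgG1 against NTB, 0 of 49 members were called, against 8.64% of 14402 genes tested. DESeq2 called 5 (Psma7, Psmb5, Psmb6, Psmc1 and Psme1), against 17.7% of the genes to which it gave an adjusted p. With edgeR, 8 members had an unadjusted p under 0.05, against 29.1% of all genes. In 3P10 against IgG1, 1 of 49 members was lower, Psmb5, against 7.42% of genes tested (3.96% higher and 3.46% lower). There, 6 members had an unadjusted p under 0.05, against 28.1% of genes. In 3P10 against NTB, 0 of 49 were called by edgeR and by DESeq2, against 0% and 0.132% of genes. In that last comparison, 2 members had an unadjusted p under 0.05, against 3.76% of genes. The signs in white fat were 36 of 49 above 0 in IgG1 against NTB (49.3% of genes), 17 of 49 in 3P10 against IgG1 (51.3%) and 29 of 49 in 3P10 against NTB (48.7%), comparisons that share libraries. Without IgG1 libraries 2 and 4 they were 32 of 49 (47.5%), 19 of 49 (53.1%) and 30 of 49 (48.8%). Over all libraries, members ran from -0.66 to 0.46, from -0.62 to 0.94 and from -0.50 to 0.28 on the log2 scale, in this order.

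Among the catalytic beta subunits of white fat, the IgG1 libraries 2, 4 and 5 held the highest values. Psmb5 stood at 5.23, 6.72, 5.20, 5.85 and 6.79 CPM in 3P10 mice, 7.57, 10.7, 6.50, 11.9 and 9.05 CPM in IgG1 mice and 7.57, 7.49, 6.85, 5.34 and 6.21 CPM in NTB mice. The groups overlapped, with IgG1 libraries 2 and 4 highest (log2 fold change -0.62, SE 0.18, adjusted p = 0.0464). The call was lost in 11 of 18 alternatives, and without IgG1 libraries 2 and 4 Psmb5 had a log2 fold change -0.37, SE 0.18, adjusted p = 0.325. Psmb6 stood at 89.9, 78.0, 89.4, 90.6 and 89.6 CPM in 3P10 mice, 101, 123, 86.5, 127 and 125 CPM in IgG1 mice and 88.7, 94.9, 81.1, 79.8 and 93.2 CPM in NTB mice. The groups overlapped through IgG1 library 3, and Psmb6 missed the threshold in 3P10 against IgG1 (log2 fold change -0.36, SE 0.11, adjusted p = 0.0557) and in IgG1 against NTB (log2 fold change 0.36, SE 0.11, adjusted p = 0.0521). Psmb7 stood at 114, 71.1, 87.9, 115 and 110.0 CPM in 3P10 mice, 103, 134, 88.8, 139 and 134 CPM in IgG1 mice and 101, 111, 98.0, 102 and 120.5 CPM in NTB mice, with a log2 fold change of -0.26 (adjusted p = 0.262) in 3P10 against IgG1. All 7 constitutive beta subunits and all 6 ATPases were below 0 in 3P10 against IgG1, with medians of -0.26 and -0.17, against 0.01 over all genes. Without IgG1 libraries 2 and 4 all 13 were still below 0, with medians of -0.12 and -0.06, against 0.02 over all genes. Some of these were close to 0, such as -0.008 for Psmb2 and -0.012 for Psmc6. Over all libraries, the alpha subunits went both ways in 3P10 against IgG1, such as 0.17 for Psma4 and -0.46 for Psma7. So did the other cap subunits, such as 0.22 for Psmd1 and -0.18 for Psmd12.

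For the inducible subunits of white fat, 3P10 and IgG1 libraries overlapped. Psmb8 stood at 70.6, 74.6, 82.8, 92.8 and 85.3 CPM in 3P10 mice, 82.0, 78.0, 80.3, 63.8 and 89.6 CPM in IgG1 mice and 70.7, 69.2, 56.8, 75.0 and 61.7 CPM in NTB mice. Its log2 fold change was 0.24 (adjusted p = 0.163) in IgG1 against NTB and 0.05 (adjusted p = 0.814) in 3P10 against IgG1. Psmb9 stood at 15.1, 14.5, 18.4, 15.6 and 19.4 CPM in 3P10 mice, 22.8, 13.1, 19.002, 12.7 and 21.2 CPM in IgG1 mice and 17.5, 15.6, 15.6, 13.8 and 13.7 CPM in NTB mice, with IgG1 libraries 2 and 4 lowest in their group. Psmb10 stood at 33.8, 53.6, 50.1, 35.4 and 43.1 CPM in 3P10 mice, 46.8, 37.0, 37.7, 31.1 and 42.4 CPM in IgG1 mice and 46.6, 48.7, 41.3, 39.6 and 37.0 CPM in NTB mice. Neither Psmb9 nor Psmb10 passed the test, and their groups overlapped.

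The PA28 partners also overlapped between white fat groups. Psme1 stood at 138, 102, 124, 136 and 123 CPM in 3P10 mice, 136, 162, 116, 173 and 162 CPM in IgG1 mice and 127, 125, 116, 105 and 122 CPM in NTB mice, with a log2 fold change of 0.33 (adjusted p = 0.0841) in IgG1 against NTB and -0.27 (adjusted p = 0.157) in 3P10 against IgG1. Psme2 stood at 118, 80.3, 115, 128 and 119 CPM in 3P10 mice, 128, 139, 85.2, 141 and 118 CPM in IgG1 mice and 134, 144, 117, 139 and 121 CPM in NTB mice, with a log2 fold change of -0.10 (adjusted p = 0.682) and -0.13 (adjusted p = 0.594) in the same comparisons. In both genes 3P10 library 2 held the lowest 3P10 value. Psme4 stood at 87.1, 99.8, 72.5, 81.7 and 91.9 CPM in 3P10 mice, 91.1, 97.8, 78.5, 122 and 110.1 CPM in IgG1 mice and 70.7, 84.6, 91.0, 84.6 and 84.0 CPM in NTB mice, with a log2 fold change of 0.27 (adjusted p = 0.160) in IgG1 against NTB. Psmd11 stood at 63.8, 66.8, 51.1, 68.7 and 69.4 CPM in 3P10 mice, 65.2, 73.4, 58.8, 73.5 and 81.8 CPM in IgG1 mice and 51.5, 59.8, 56.3, 63.8 and 63.4 CPM in NTB mice, with a log2 fold change of 0.26 (adjusted p = 0.133) in IgG1 against NTB. IgG1 library 3 was the lowest of its group for Psmb5, Psmb6, Psme1, Psme4 and Psmd11, and without it IgG1 against NTB called 8 members, against 16.2% of all genes, and 3P10 against IgG1 called 6, against 15.9%. Without IgG1 libraries 2 and 4, 0 members were called in each comparison, against 0.636% of genes in IgG1 against NTB, 0.103% in 3P10 against IgG1 and 0% in 3P10 against NTB.

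Markers of other cells also differed between the white fat groups, in part through IgG1 libraries 2 and 4. Fibroblast markers summed to 1877 to 3845 CPM in 3P10 mice, 766 to 2089 CPM in IgG1 mice and 3127 to 4741 CPM in NTB mice, with 6 of 10 lower in IgG1 than in NTB mice and 6 of 10 higher in 3P10 than in IgG1 mice. Leukocyte markers summed to 239.5 to 467, 134 to 259.6 and 194 to 385 CPM in 3P10, IgG1 and NTB mice. Of 11 tested, 3 were higher in 3P10 than in IgG1 mice. Of all genes, 8.64% were called in IgG1 against NTB, and 3.96% were higher in 3P10 than in IgG1 mice. Without IgG1 libraries 2 and 4, 2 of 10 fibroblast markers were lower in IgG1 than in NTB mice. In that fit, 0 of 10 fibroblast and 0 of 11 leukocyte markers were called in 3P10 against IgG1. Epidermis markers summed to 964 CPM in IgG1 library 4 and 85.8 CPM in IgG1 library 2, against at most 13.7 CPM in the other 13. The part of these cells in the member values was not tested.

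**Figure D3:**
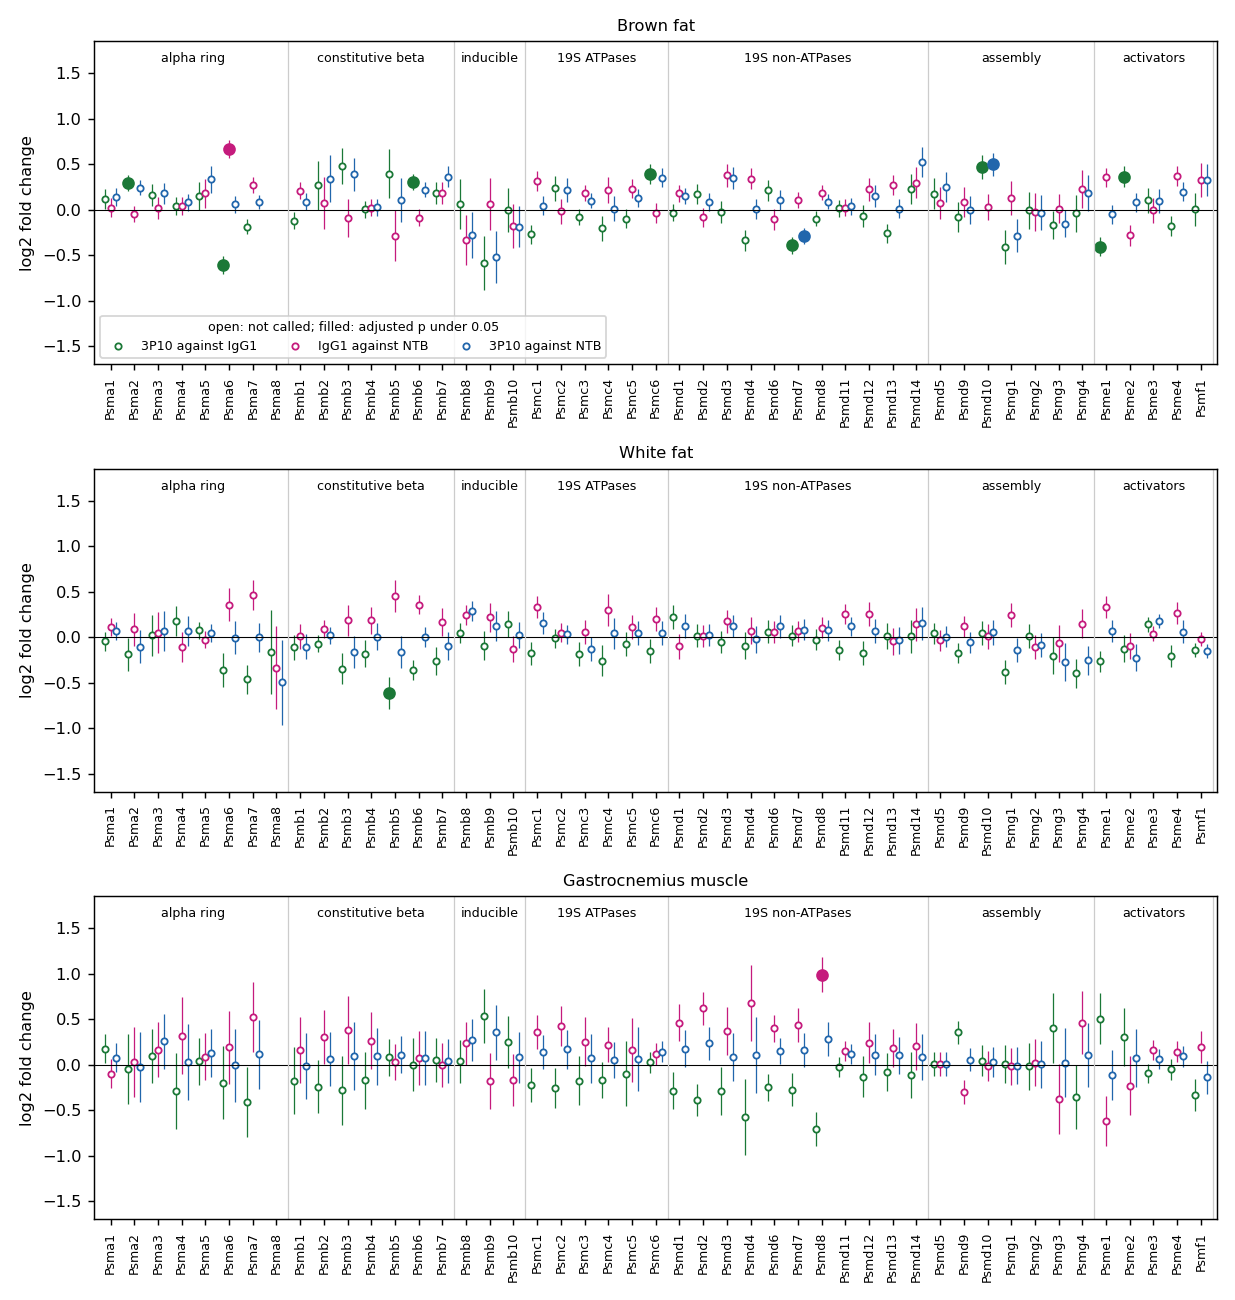
Log2 fold changes of every tested proteasome subunit gene, by role, in 3 tissues and 3 comparisons. Bars are the SE, and filled points passed an adjusted p of 0.05: for 3P10 against IgG1, 8 members of brown fat, 1 of white fat and 0 of muscle, and for IgG1 against NTB, 1, 0 and 1 members.

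In muscle, the cap gene Psmd8 was higher in IgG1 than in NTB mice, and it was the 1 member of 48 called in that comparison, against 5.6% of 13283 genes tested (2.68% higher and 2.92% lower). An unadjusted p under 0.05 was reached by 7 members, against 20.8% of genes. Psmd8, a subunit of the lid of the 19S cap, stood at 115, 104, 81.6, 88.6 and 102 CPM in 3P10 mice, 141, 207, 128, 204 and 122 CPM in IgG1 mice and 60.04, 64.6, 103, 91.7 and 84.7 CPM in NTB mice. Every IgG1 library lay above every 3P10 and every NTB library. In IgG1 against NTB the log2 fold change was 0.99 (SE 0.19, adjusted p = 0.00744), and groups that do not overlap made up 6.38% of all genes. The call held in all 18 alternatives, from 0.79 to 1.08, and was 0.79 (adjusted p = 0.0112) without the 4 libraries that stood apart. In 3P10 against IgG1 the log2 fold change was -0.71 (adjusted p = 0.132) with edgeR, where 0 of 48 members were called against 0.211% of genes. Without the 4 libraries it was -0.43 (adjusted p = 0.249). DESeq2 over all libraries called Psmd8 alone of the members (-0.70, adjusted p = 0.0262), against 2.18% of the genes to which it gave an adjusted p. In that comparison, groups that do not overlap made up 2.44% of all genes, and 3 members had an unadjusted p under 0.05, against 10.8%. In 3P10 against NTB, 0 of 48 were called against 0% of genes, with 0 at an unadjusted p under 0.05 (4.24% of genes) and 0 called by DESeq2 (0.113% of genes). Log2 fold changes above 0 were found for 37 of 48 members in IgG1 against NTB (51.6% of genes), 17 of 48 in 3P10 against IgG1 (46.6%) and 41 of 48 in 3P10 against NTB (49%), comparisons that share libraries. Without the 4 libraries that stood apart, these counts were 28 of 48 (51.7%), 36 of 48 (47%) and 44 of 48 (52.2%), so the balance in 3P10 against IgG1 turned to above 0.

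The Psmd8 start site is shown because this call held in every alternative. Its RefSeq window on GRCm38.p6 was chr7:29180624-29180923 on the minus strand, and it held none of the motifs searched.
Psmd8: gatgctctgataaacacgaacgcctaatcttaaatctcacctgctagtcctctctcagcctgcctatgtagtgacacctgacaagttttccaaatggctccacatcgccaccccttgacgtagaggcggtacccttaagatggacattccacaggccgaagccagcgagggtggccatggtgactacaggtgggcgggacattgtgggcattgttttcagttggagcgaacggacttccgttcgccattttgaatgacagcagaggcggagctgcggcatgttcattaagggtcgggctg
Over all libraries, the 11 non-ATPase subunits of the cap were above 0 in IgG1 against NTB, from 0.15 to 0.99 with a median of 0.40, against a median of 0.01 over all genes. Without the 4 libraries that stood apart, 9 of 11 were above 0, and the median was 0.21. In 3P10 against IgG1, which shares the IgG1 libraries, 11 of 11 were below 0 over all libraries, with a median of -0.27. Without the 4 libraries, 5 of 11 were below 0, and the median was 0.01. Psmd2, a scaffold of the cap, stood at 347, 286, 352, 318 and 369 CPM in 3P10 mice, 228, 508, 479.8, 524 and 448 CPM in IgG1 mice and 285, 303, 257, 280.4 and 296 CPM in NTB mice. IgG1 library 1 was the lowest of all 15, and the other 4 IgG1 libraries were the highest, so the groups overlapped through 1 library (log2 fold change 0.62, SE 0.18, adjusted p = 0.0556). Without IgG1 library 1, 5 members were called, all higher in IgG1 than in NTB mice: Psmc1, Psmd1, Psmd2, Psmd6 and Psmd8. In that fit 9.78% of all genes were called. Without the 4 libraries that stood apart, of these 5 only Psmd8 was called, and Psmd2 had a log2 fold change of 0.41 (adjusted p = 0.216) and Psmc1 one of 0.06 (adjusted p = 0.865). Psmd2 is outside the naming rule and was chosen after its values were seen. Psmd11 stood at 74.1, 70.2, 68.0, 72.0 and 78.7 CPM in 3P10 mice, 58.8, 83.9, 73.5, 80.8 and 72.8 CPM in IgG1 mice and 61.1, 67.7, 63.4, 73.3 and 68.6 CPM in NTB mice, with a log2 fold change of 0.15 (adjusted p = 0.497) in IgG1 against NTB.

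**Figure D4:**
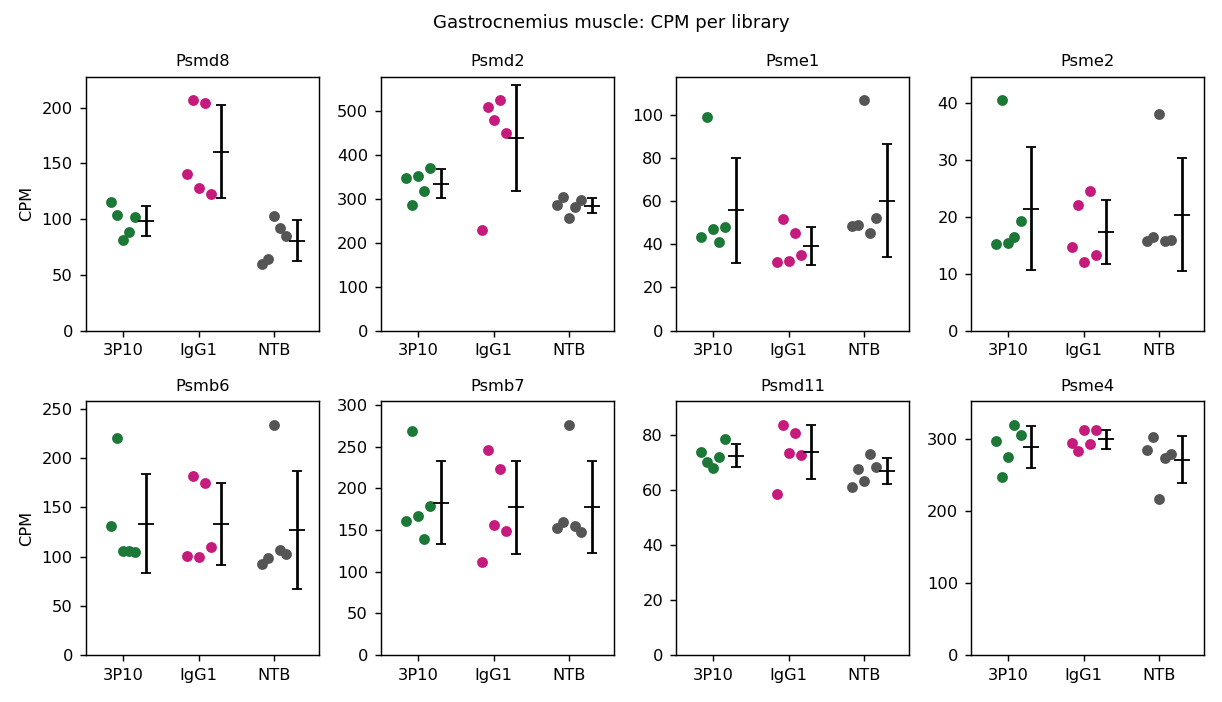
CPM per library of 8 members in gastrocnemius muscle, with the mean and SD of each group beside the points. All 5 IgG1 libraries lie above the NTB and 3P10 libraries for Psmd8. For Psmb6, Psmb7, Psme1 and Psme2, 1 or 2 libraries per group lie above the rest of their group.

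No core subunit passed the test in muscle. Psmb6 stood at 131, 221, 106, 105 and 104 CPM in 3P10 mice, 100.1, 182, 99.7, 175 and 109.9 CPM in IgG1 mice and 92.5, 98.9, 234, 107 and 102 CPM in NTB mice. Psmb7 stood at 160.3, 269, 167, 139.7 and 179 CPM in 3P10 mice, 112.02, 246, 157, 223 and 149 CPM in IgG1 mice and 153, 159, 277, 154 and 147 CPM in NTB mice. In both genes the 4 libraries that stood apart held the highest values, whichever their group. Psmb5 stood at 13.3, 12.3, 8.503, 6.68 and 7.93 CPM in 3P10 mice, 11.5, 8.93, 7.84, 7.97 and 9.84 CPM in IgG1 mice and 7.94, 7.42, 12.5, 9.05 and 8.31 CPM in NTB mice, and its log2 fold change was 0.03 (adjusted p = 0.960) in IgG1 against NTB, and 0.08 (adjusted p = 0.951) in 3P10 against IgG1. The groups overlapped for Psmb5. Psmb8 stood at 6.68, 10.3, 4.29, 6.50 and 7.82 CPM in 3P10 mice, 6.20, 7.42, 5.07, 8.79 and 7.21 CPM in IgG1 mice and 5.10, 5.94, 9.07, 4.40 and 5.10 CPM in NTB mice. Psmb9 stood at 1.64, 2.56, 0.790, 1.47 and 2.04 CPM in 3P10 mice, 0.881, 1.25, 0.665, 1.56 and 1.497 CPM in IgG1 mice and 0.936, 1.17, 1.67, 1.36 and 1.55 CPM in NTB mice. Psmb10 stood at 10.9, 20.3, 8.39, 6.41 and 10.3 CPM in 3P10 mice, 11.5, 10.4, 6.51, 9.96 and 8.80 CPM in IgG1 mice and 9.23, 8.89, 17.9, 9.01 and 8.27 CPM in NTB mice. All 3 inducible subunits were positive in 3P10 against IgG1, from 0.04 to 0.53, and none passed the test.

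Psme1 was lower in muscle of IgG1 mice once the libraries that stood apart were left out. Over all libraries it stood at 43.6, 98.8, 47.0, 41.0 and 48.0 CPM in 3P10 mice, 31.9, 51.5, 32.02, 45.3 and 35.2 CPM in IgG1 mice and 48.2, 49.1, 107, 45.1 and 52.0 CPM in NTB mice, with a log2 fold change -0.62, SE 0.28, adjusted p = 0.216 in IgG1 against NTB. Within each group the highest values were those of the libraries that stood apart. Without those 4 libraries, Psme1 was lower in IgG1 than in NTB mice (log2 fold change -0.56, SE 0.10, adjusted p = 0.00613) and missed the threshold in 3P10 against IgG1 (log2 fold change 0.44, SE 0.10, adjusted p = 0.0868), and all called genes were 6.52% and 0.134% of those tested. The 3 remaining IgG1 libraries lay below all remaining 3P10 and NTB libraries. The libraries left out were picked from these same data, and the share of all genes that separate in this smaller set was not computed. With 3 libraries in a group, such a separation says little by itself. Psme2 stood at 15.3, 40.6, 15.5, 16.5 and 19.3 CPM in 3P10 mice, 14.7, 22.1, 12.1, 24.6 and 13.4 CPM in IgG1 mice and 15.7, 16.5, 38.2, 15.8 and 15.9 CPM in NTB mice, with a log2 fold change of -0.23 (adjusted p = 0.747) in IgG1 against NTB. Psme4 stood at 297, 247, 275, 320.2 and 306 CPM in 3P10 mice, 294, 284, 313, 293 and 313 CPM in IgG1 mice and 284, 303, 217, 273 and 279 CPM in NTB mice, with a log2 fold change of 0.14 (adjusted p = 0.547) in IgG1 against NTB. NTB library 3 was the lowest of all for Psme4.

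The muscle libraries that stood apart carried more counts of most members. Their summed CPM was 6531 in 3P10 library 2, 7805 and 7465 in IgG1 libraries 2 and 4, and 6867 in NTB library 3, against 3529 to 4906 in the other 11. The same libraries held ribosomal protein sums of 21703 to 24892 CPM against 8415 to 10904 CPM, and a count-weighted mean exon length of 3975 to 4609 bases against 4999 to 6173 bases. Nfe2l1, the main activator of proteasome genes, ran lower in them, at 397 to 628 CPM against 645 to 907 CPM. IgG1 mice had 2 such libraries and the other groups 1 each. Fibroblast markers summed to 603 to 851 CPM in 3P10 mice, 538 to 850.4 CPM in IgG1 mice and 982 to 1219 CPM in NTB mice. Of these markers, 4 of 10 were lower in IgG1 than in NTB mice, and 3 of 10 without the 4 libraries. Of all genes, 2.92% were called lower, and without the 4 libraries 6.52% were called in either direction. The part of transcript length and of fibroblast RNA in the member values was not tested.

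**Figure D5:**
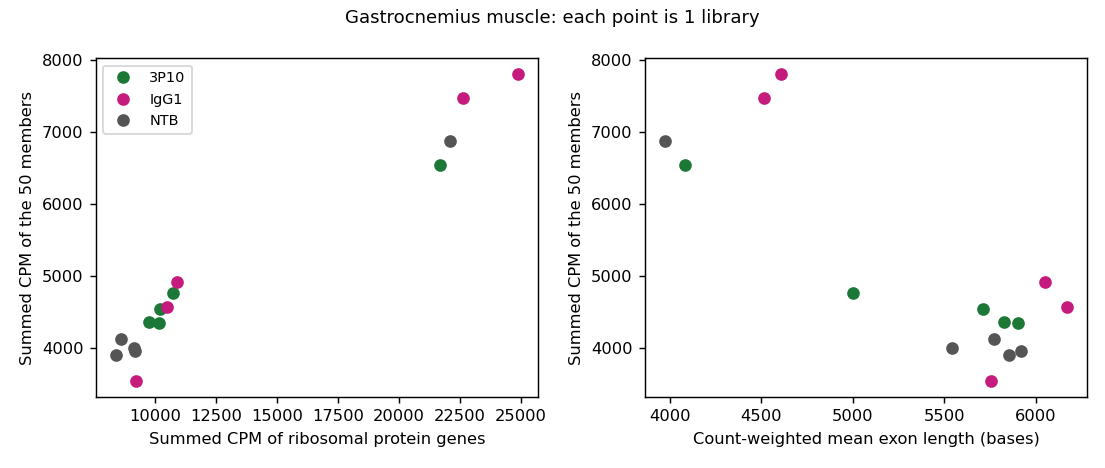
Summed CPM of the 50 members in each muscle library, against the summed CPM of ribosomal protein genes and against the count-weighted mean exon length in bases. The 4 libraries with the highest member sums come from all 3 groups, with ribosomal protein sums from 21703 CPM up and mean lengths from 3975 to 4609 bases.

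Whether members responded differently in muscle and white fat was tested as an interaction in a joint edgeR fit. White fat and muscle libraries carry the same numbers in the labels within each group, and whether a number marks 1 mouse is not stated. The fit treated all 30 libraries as independent, and with the number as a block 0 members were called in either comparison. Deviations of same-numbered libraries of the 2 tissues correlated over 0.1 in 6 of 15 pairs. In IgG1 against NTB, 0 of 49 members passed, against 1.11% of genes, with 5 at an unadjusted p under 0.05 (15.5% of genes). For 3P10 against IgG1, 0 of 49 passed, against 0.208% of genes, with 4 at an unadjusted p under 0.05 (15% of genes). DESeq2 was not run on this test. The difference for Psmd8, muscle minus white fat, was 0.85 (SE 0.23, adjusted p = 0.0583) in IgG1 against NTB. For Psme1 it was -0.99 (SE 0.31, adjusted p = 0.105) over all libraries. Without the 4 muscle libraries, Psme1 was the 1 member called in IgG1 against NTB, lower in muscle, against 0.466% of genes. In white fat Psmd8 itself stood at 105, 151, 118, 101 and 123 CPM in 3P10 mice, 123, 121, 106, 141 and 120.0 CPM in IgG1 mice and 122, 98.0, 109, 119 and 121 CPM in NTB mice, with a log2 fold change of 0.10 (adjusted p = 0.585) in IgG1 against NTB. In brown fat, Psmd8 had a log2 fold change of 0.19 (adjusted p = 0.249) in the same comparison, and Psma6 had a log2 fold change of 0.36 (adjusted p = 0.212) in white fat and 0.19 (adjusted p = 0.839) in muscle. Brown fat came from another library kit, so its difference from the other tissues was not tested.

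Genes that act beside the proteasome were read from 7 lists. Pomp, the chaperone that matures the core, was higher in brown fat of 3P10 than of IgG1 mice. It stood at 597, 672 and 785 CPM in 3P10 mice, 484, 446, 472, 594 and 518 CPM in IgG1 mice and 497, 538 and 648 CPM in NTB mice (log2 fold change 0.44, SE 0.10, adjusted p = 0.00736). All 3P10 libraries lay above all IgG1 libraries. Pomp was not called in white fat or muscle. AI314180, a proteasome adaptor also called Ecpas, was lower (log2 fold change -0.49, SE 0.10, adjusted p = 0.00335), and the other 13 of 15 companions tested were not called. In white fat 0 of 16 companions were called in any comparison. In muscle 1 of 16, the ubiquitin shuttle Ubqln2, was higher in IgG1 than in NTB mice (log2 fold change 0.50, SE 0.10, adjusted p = 0.00855).

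Of the regulators of proteasome genes, Nfe2l1 was not called in any tissue or comparison. Its log2 fold change in IgG1 against NTB was 0.05 for brown fat, 0.00 for white fat and -0.07 for muscle. Brown fat of 3P10 against IgG1 mice gave -0.19 (adjusted p = 0.120). Nfe2l2, also called NRF2, was higher in muscle of IgG1 than of NTB mice, at 26.6, 24.5, 30.3, 39.6 and 31.5 CPM in 3P10 mice, 40.1, 37.6, 43.8, 30.9 and 35.9 CPM in IgG1 mice and 23.6, 27.4, 27.5, 24.4 and 30.6 CPM in NTB mice (log2 fold change 0.50, SE 0.14, adjusted p = 0.0467). The ranges overlapped between 3P10 and IgG1 mice. Ddi2, the protease that releases the NFE2L1 protein, was higher in white fat of IgG1 than of NTB mice (log2 fold change 0.83, SE 0.25, adjusted p = 0.0492). In all, IgG1 against NTB called 1 of 11 regulators in white fat, 1 of 11 in muscle and 0 of 8 in brown fat. The shares of all genes there were 8.64%, 5.6% and 2.97%, and the other comparisons called 0 regulators.

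Among the ubiquitin ligases known from muscle atrophy, Fbxo32 and Fbxo31 were higher in muscle of IgG1 than of NTB mice. Fbxo32, also called atrogin-1, stood in muscle at 457, 507, 605, 490.2 and 405 CPM in 3P10 mice, 417, 1590.0, 746, 1408 and 525 CPM in IgG1 mice and 417, 302, 362, 342 and 295 CPM in NTB mice. The IgG1 libraries 2, 3, 4 and 5 were above every NTB library and IgG1 library 1 lay level with the highest NTB library, while libraries 2 and 4, which stood apart, were highest (log2 fold change 1.45, SE 0.30, adjusted p = 0.0125). Fbxo31 was higher in IgG1 than in NTB mice in all tissues, with a log2 fold change of 1.12 (adjusted p = 0.00292) in brown fat, 1.41 (adjusted p = 0.00658) in white fat and 0.52 (adjusted p = 0.0327) in muscle. For 3P10 against IgG1, Fbxo31 had a log2 fold change of -1.14 (adjusted p = 0.000522) in brown fat and -1.05 (adjusted p = 0.0228) in white fat. Fbxo21 was higher in IgG1 than in NTB mice in brown fat (log2 fold change 0.61, adjusted p = 0.0280) and white fat (log2 fold change 0.94, adjusted p = 0.0191), and lower in 3P10 than in IgG1 mice in white fat (log2 fold change -0.80, adjusted p = 0.0373). In brown fat it was also higher in 3P10 than in NTB mice (log2 fold change 0.52, adjusted p = 0.0333). Brown fat of 3P10 mice differed from IgG1 in other ligases: Trim32 was higher (log2 fold change 0.95, adjusted p = 0.0164) and Cblb lower (log2 fold change -0.74, adjusted p = 0.0264). Without the 4 muscle libraries that stood apart, the muscle log2 fold change of Fbxo32 in IgG1 against NTB was 0.73 (adjusted p = 0.0382) and that of Fbxo31 was 0.37 (adjusted p = 0.0347). In the order brown fat, white fat and muscle, 2 of 10, 2 of 11 and 2 of 11 ligases were higher in IgG1 than in NTB mice, and 0 lower. Of all genes, 2.97%, 8.64% and 5.6% were called in these comparisons.

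Among the genes of ubiquitin and its activation, the conjugating enzyme Ube2n was lower in IgG1 than in NTB mice in white fat (log2 fold change -0.45, adjusted p = 0.0229) and muscle (log2 fold change -0.49, adjusted p = 0.0269). It was higher in 3P10 than in IgG1 mice in brown fat (log2 fold change 0.63, adjusted p = 0.0432) and white fat (log2 fold change 0.37, adjusted p = 0.0490). Ube2d1 was higher in white fat of 3P10 than of IgG1 mice (log2 fold change 0.66, adjusted p = 0.0327), and the deubiquitinase Otub1 was lower in brown fat of 3P10 than of IgG1 mice (log2 fold change -0.66, adjusted p = 0.0396). Of the p97 cofactors, Ubxn6 was higher in IgG1 than in NTB mice in white fat (log2 fold change 0.58, adjusted p = 0.0166) and muscle (log2 fold change 0.63, adjusted p = 0.0348), and lower in 3P10 than in IgG1 mice in white fat (log2 fold change -0.61, adjusted p = 0.0198). Nploc4 was higher in muscle of IgG1 mice (log2 fold change 0.77, adjusted p = 0.0187). No p97 cofactor was called in brown fat, 0 of 11.

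The products of the interferon and antigen processing list act upstream of or beside the immunoproteasome. In white fat, 3 of its 20 genes were lower in IgG1 than in NTB mice and 0 higher, against 8.64% of all genes called. Isg15, a ubiquitin-like interferon target, stood at 9.98, 6.64, 9.04, 11.4 and 8.96 CPM in 3P10 mice, 8.69, 3.70, 3.78, 3.51 and 4.62 CPM in IgG1 mice and 10.02, 11.01, 8.63, 5.73 and 9.92 CPM in NTB mice. The IgG1 libraries 2 to 5 lay below every other white fat library (log2 fold change -0.90, SE 0.26, adjusted p = 0.0416, and 0.92, adjusted p = 0.0432, in 3P10 against IgG1). Ube2l6, its conjugating enzyme, had a log2 fold change of -0.74 (adjusted p = 0.0446) and 0.76 (adjusted p = 0.0449) in the same comparisons, and the interferon-induced GTPase Gbp2 had a log2 fold change of -0.89 (adjusted p = 0.0202) in IgG1 against NTB. In brown fat, Gbp4 was lower in 3P10 than in IgG1 mice (log2 fold change -1.05, adjusted p = 0.0492), 1 of 17 genes, and in muscle 0 of 20 were called. Of 16 cytosolic chaperones, Hsp90aa1 and Hsph1 were lower in white fat of IgG1 than of NTB mice (log2 fold changes -0.79, adjusted p = 0.00658, and -0.67, adjusted p = 0.0463) and higher in 3P10 than in IgG1 mice (log2 fold changes 0.73, adjusted p = 0.0127, and 0.97, adjusted p = 0.0182). None of the chaperones was called in brown fat or muscle. Without the 4 muscle libraries that stood apart, Ubqln2, Nfe2l2, Ube2n, Nploc4 and Ubxn6 were still called in muscle in IgG1 against NTB. The chaperone Stip1 (log2 fold change -0.39, adjusted p = 0.0489) was called as well. So was another proteasome companion, not named here, with 2 of 16 companions higher in that fit, against 6.52% of all genes called. Without IgG1 libraries 2 and 4, Fbxo31 in IgG1 against NTB (0.93, adjusted p = 0.0370) was the 1 gene of these 7 lists still called in white fat.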

How the data were processed

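RNA of brown fat, white fat and gastrocnemius muscle was sequenced in 47 libraries. The authors deposited whole-number counts per gene in 2 tables of 24391 genes, one for brown fat and one for white fat and muscle. Per the labels' protocols, brown fat RNA was made into 3′ libraries with a module for molecular identifiers, and the other tissues into directional libraries. The submitters' processing notes name Trim Galore, STAR 2.6.0a, featureCounts 1.6.2, edgeR 3.22.3 and build mm9. Whether duplicates were collapsed and which strand was counted is not given in the sources used here.

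Each tissue was fitted on its own with all 3 groups in edgeR 4.0.16 (R 4.3.3): TMM scaling, filterByExpr (minimum count 10, minimum total 15), and the quasi-likelihood test. P-values were adjusted by Benjamini-Hochberg over all genes tested and called under 0.05. CPM was computed on TMM-scaled totals, and SE was taken from the log2 fold change and the test's F. White fat and muscle were also fitted together with interaction terms. Exon lengths from GENCODE M21, taken as the union of a gene's exons, were found for 23348 of the genes and for all 50 members. The fits were tested on simulated data. Alternatives were DESeq2 1.42.0, RLE factors, other filters, the groups compared alone, a replicate block, a muscle marker covariate in brown fat, and leaving out libraries. Summing Psme2 with Psme2b was added after seeing the data.

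Members and gene lists were chosen with earlier results of these data known. Values in every library are given for up to 6 called members with the smallest adjusted p per tissue and comparison, and for Psmb5 to Psmb10, Psme1, Psme2, Psme4 and Psmd11. Of each companion list, up to 4 called genes with the smallest adjusted p are named, with Nfe2l1, Nfe2l2 and Pomp; some listed genes are not reported here. The labels do not tie a library number to a mouse or batch. Within a tissue, libraries of different groups were matched by the replicate number in their titles. Their deviations correlated over 0.1 in 0 of 5 or 6 pairs in brown fat. In each comparison of white fat and muscle it was 2 to 4 of 5, never all, so the replicate numbers were not treated as pairs. The library numbers in the column labels differ between the groups of a tissue, so this check and the replicate block do not test them. The precision of brown fat is limited by its 0.799 to 2.46 M counts per library.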

Additional observations from a re-analysis of the deposited data

Results flagged for a closer look

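Among 117 groups of 5 or 6 libraries tested for 1 library far from the others, 14 held one. The same libraries were tested for many genes and for their sum, and some genes were picked by their calls in these data. The tests are thus not independent, and the count cannot be compared with a rate by chance. Most of the 14 fell on NTB library 3 and 3P10 library 2 of muscle. In muscle, NTB library 3 lay far above the other NTB libraries for Psmb6 (234 CPM against 92.5 to 107 CPM), Psmb7 (277 against 147 to 159 CPM), Psmb10 (17.9 against 8.27 to 9.23 CPM), Psme1 (107 against 45.1 to 52.0 CPM) and Psme2 (38.2 against 15.7 to 16.5 CPM). Its summed CPM of the members was 6867, against 3893 to 4117 in the other NTB libraries. In 3P10 library 2 of muscle, Psmb6 stood at 221 CPM against 104 to 131 CPM, Psme1 at 98.8 against 41.0 to 48.0 CPM, and Psme2 at 40.6 against 15.3 to 19.3 CPM. The summed CPM of that library was 6531, against 4336 to 4752 in the other 3P10 libraries. Both are among the 4 muscle libraries with high ribosomal protein sums and a short mean exon length.

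In white fat, 3P10 library 2 lay below the other 3P10 libraries for Psmb6 (78.0 CPM against 89.4 to 90.6 CPM) and Psme2 (80.3 against 115 to 128 CPM). In brown fat, 3P10 library 6 lay below the other 3P10 libraries for Psme1 (73.4 against 99.1 to 109.7 CPM), and IgG1 library 1 lay above the other IgG1 libraries for Psmb9 (23.9 against 7.23 to 10.996 CPM).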

How the results depend on the processing

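Of 183 recomputed results, 133 stayed the same and 50 moved. Most were counts of members called, the same if within 1.5 times or if both were 0. The rest were group sums of CPM, the same if the change was under the SD. In white fat and muscle, 3P10 against NTB had 0 calls in the main fit, so agreement there was of 0 with 0. No called log2 fold change reversed. DESeq2 called 4 and 6 members in brown fat in IgG1 and in 3P10 against NTB, 5 (IgG1 against NTB) and 4 (3P10 against IgG1) in white fat, and 2 and 1 in muscle. Among genes given an adjusted p, the share called in IgG1 against NTB rose too. It went from 2.97% to 6.25% in brown fat and from 8.64% to 17.7% in white fat. Most counts in this section come without the share of all genes, so they describe the fits and not the members alone. RLE factors called 1 and 2 members in white fat in these comparisons, and so did a filter that asks 1 CPM of 5 libraries. That filter called 1 in brown fat in 3P10 against NTB, as did the muscle covariate. With no filter, 5 members were called in brown fat and 0 in white fat in 3P10 against IgG1. Fitting only the 2 groups compared called 0 in white fat. A replicate block, whose numbers are not known to pair the libraries, called 2 in brown fat in 3P10 against IgG1, 0 in 3P10 against NTB and 0 in white fat. Without white fat IgG1 libraries 2 and 4, 0 were called in 3P10 against IgG1. Without the 4 muscle libraries, 2 were called in IgG1 against NTB, and 1 in its interaction with tissue.

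Leaving out 1 library, IgG1 against NTB called 1 to 4 members of brown fat, 0 to 8 of white fat and 1 to 5 of muscle. The ranges were 3 to 9, 0 to 6 and 0 to 1 for 3P10 against IgG1, and 0 to 6, 0 to 0 and 0 to 0 for 3P10 against NTB. Brown fat had 4 calls in IgG1 against NTB without IgG1 library 2, and 2 without NTB library 2 or 4. In 3P10 against IgG1 it had 3 without IgG1 library 3 and 4 without 3P10 library 3. In 3P10 against NTB it had 5 without 3P10 library 1, 6 without NTB library 2, 1 without 3P10 library 3, 5 or 6 or NTB library 4, 5 or 6, and 0 without 3P10 library 4 or NTB library 1 or 3. White fat had 8 and 6 calls without IgG1 library 3 and 2 and 4 without IgG1 library 1, the count against NTB first. Without IgG1 library 3, 16.2% and 15.9% of all genes were called, against 8.64% and 7.42% with all libraries. Psmb5 was lost in white fat without any of 3P10 libraries 1 to 4 or IgG1 libraries 2, 4 or 5. Muscle had 5 and 1 calls without IgG1 library 1. There, 9.78% of all genes were called in IgG1 against NTB, against 5.6% with all libraries. Depth limits brown fat most, where Psmb5, Psmb8, Psmb9 and Psmb10 held 200, 250, 203 and 385 counts over 17 libraries.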
